A study of Homo sapiens with 4 samples.

Results

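Transcripts of 39 genes that build the contacts between epithelial cells were followed in a lung cancer cell line and in the capmatinib-resistant lines derived from it. The genes were chosen by symbol and cover tight junctions (13 claudins and 7 other genes), adherens junctions (4), desmosomes (4 cadherins and 7 plaque genes) and gap junctions (4 connexins). All 39 were among the 26364 symbols of the files, and 30 were kept because they reached 9 units in at least 1 library, where the deposited level is log2(units + 1). Over all symbols, 14892 passed this floor. The 9 genes left out were CLDN6, CLDN9, CLDN10, CLDN11, DSC3, DSG3, PKP1, GJA1 and GJB6. PKP1, a desmosomal plakophilin gene of stratified epithelium, and GJB6, the connexin 30 gene, were listed at 0 in all 4 libraries. CLDN10, at most at 3.29, lay just below the floor, and CLDN2, at most at 4.09, lay closest above it.

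EBC-1 is an established human lung squamous cancer cell line with an amplified MET gene, and its library came from passages 35 to 37. Its descendants were selected stepwise in capmatinib, which blocks the MET kinase, to final concentrations of 1.5 µmol/L for EBC-CR1, 2.2 for EBC-CR2 and 2.4 for EBC-CR3. They were then held in 1 µmol/L, and were at passages 64 to 66 (EBC-CR1) or 81 to 83 (EBC-CR2 and EBC-CR3). Each line gave 1 library, and the labels do not say whether a line is a clone or whether drug was present at harvest, so selection, drug and passage cannot be told apart. Because this is bulk RNA, fewer cells with a transcript and less transcript per cell cannot be told apart either. Inside the files, the EBC-CR1 column carries the name EBC-R3 and the EBC-CR3 column the name EBC-R1. Names here follow the sample records, so statements on these 2 lines would change places if the column names were right. A single level is followed by those of the resistant lines in the order EBC-CR1, EBC-CR2, EBC-CR3, all on the deposited log2 scale unless a share or fold is named.

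The contacts between epithelial cells come in layers. Claudins and occludin seal the space between neighbours and are tied to actin by scaffolds such as ZO-1. Below them, cadherins bound to catenins hold the cells together at adherens junctions, and desmosomes anchor desmosomal cadherins to keratin filaments through plakophilins, plakoglobin and desmoplakin. Connexins form gap junction channels that pass small molecules between cells. In squamous epithelium the claudins, desmosomal cadherins and connexins used differ between the basal and the upper layers.

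Estimated depths were 21.8 to 29.2 M reads. The epithelial marker genes EPCAM, KRT7, KRT8, KRT18 and KRT19 were at log2 levels of 10.41 or more in every library. Their summed level was nonetheless lower in the resistant lines, at 15.40 to 15.63 compared with 16.44 in EBC-1. KRT19 was at 14.77 in EBC-1 against 12.34, 13.65 and 12.97, and KRT8 at 15.01 against 13.50, 13.90 and 13.46. KRT7 was instead higher in each resistant line, at 12.03 in EBC-1 against 12.80, 12.73 and 13.09. KRT18 (14.39 against 14.09, 13.81 and 14.10) and EPCAM (11.22 against 10.94, 10.41 and 10.65) were lower by less than 2-fold. The squamous keratin genes KRT5, KRT6A and KRT14 were listed at 0 in all 4 despite the squamous label. Of 6 squamous markers 1 to 3 were above 0 in a library, and their summed level, mostly SOX2, was 6.50 in EBC-1 and 9.36 to 10.85 in the resistant lines. Of 6 fibroblast markers 3 were above 0 in each library, with a summed level of 5.56 in EBC-1 and 6.45 to 7.29 in the resistant lines and DCN and LUM at 0 throughout. Of 5 endothelial markers 0 to 2 were above 0, summing to 0.81 in EBC-1 and 0 to 3.61 in the resistant lines, with PECAM1 at 0.58 or less. The leukocyte list, with 2 to 4 of 5 markers above 0, summed to 8.91 in EBC-1 and 8.50 to 10.91 in the resistant lines, nearly all of it CD68, with PTPRC at 1.46 or less. The 5 erythroid markers, led by HBB, were all above 0 in EBC-CR1 (summed level 14.22) and 1 of them in EBC-CR2 (4.85). Their part in the results was not tested.

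Among claudins, CLDN1 and CLDN16 were far above EBC-1 in every resistant line. CLDN1, the claudin 1 gene, whose product seals the tight junctions of epidermis, was at a log2 level of 9.39 in EBC-1 against 13.13, 13.38 and 12.68. Every resistant line was above EBC-1, by 13.35-fold, 15.82-fold and 9.80-fold. CLDN16, a claudin gene best known from magnesium reabsorption in the kidney, was at 0.81 in parental cells, which is 1 estimated read, against 5.38, 6.29 and 4.73, or 35, 69 and 29 reads. The 95% counting interval of its log2 ratio ran, by line, from 2.97 to 10.89, from 3.97 to 11.82 and from 2.30 to 10.24. With the 3 lines taken as 1 phenotype, CLDN1 was higher by a log2 fold of 3.67 ± 0.39 (SE, limma, Benjamini-Hochberg adjusted p = 0.0851) and CLDN16 by 4.66 ± 0.92 (limma, adjusted p = 0.240). Neither passed 0.05, but CLDN1 did with a floor of 50 units (limma, adjusted p = 0.0347) and with libraries centred on their median difference (0.0482), and over all alternatives its adjusted p ranged up to 0.909 (without EBC-CR3).

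CLDN1 and CLDN16 are neighbours on chromosome 3. In RefSeq on GRCh38.p14 the longer CLDN16 gene model starts before CLDN1 and runs across it on the opposite strand. The strand setting used in counting is not given here, so a small part of the CLDN1 reads could be listed under CLDN16. CLDN16 held 0.112% as many units as CLDN1 in EBC-1, and 0.452%, 0.729% and 0.387% in its descendants, a share that was not constant. The 250 bases before the start of CLDN1 and before the 2 starts of CLDN16 are shown because these are the claudin genes that were at least 2-fold higher in every line (RefSeq, GRCh38.p14). Capitals mark the single match to a searched motif, TGAATCA, which begins 246 bases before the first CLDN16 start. It matches the AP-1 pattern as searched, TGANTCA, in which N is any base. The other windows hold none of the motifs searched.
CLDN1, chr3:190322447-190322696, minus strand: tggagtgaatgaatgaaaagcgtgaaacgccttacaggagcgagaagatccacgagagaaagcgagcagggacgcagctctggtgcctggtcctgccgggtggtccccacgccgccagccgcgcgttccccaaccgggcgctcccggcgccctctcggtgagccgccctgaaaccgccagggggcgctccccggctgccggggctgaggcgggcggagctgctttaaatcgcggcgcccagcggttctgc
CLDN16 first start, chr3:190290111-190290360, plus strand: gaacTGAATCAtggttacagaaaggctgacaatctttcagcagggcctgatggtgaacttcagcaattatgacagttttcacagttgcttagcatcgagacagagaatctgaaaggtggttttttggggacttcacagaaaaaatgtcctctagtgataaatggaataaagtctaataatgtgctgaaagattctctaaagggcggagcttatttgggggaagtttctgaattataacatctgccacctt
CLDN16 second start, chr3:190387913-190388162, plus strand: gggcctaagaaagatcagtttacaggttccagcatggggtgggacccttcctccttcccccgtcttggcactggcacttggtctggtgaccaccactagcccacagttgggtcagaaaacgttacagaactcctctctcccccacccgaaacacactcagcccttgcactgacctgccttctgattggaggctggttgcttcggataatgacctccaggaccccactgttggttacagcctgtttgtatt

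The genes along this stretch that passed the floor were also above EBC-1. Of the 5 protein-coding genes on each side of CLDN1, 5 passed the floor, and all 5 were higher in each resistant line. At least 2-fold in every line were P3H2, IL1RAP, TP63 and CLDN16, the last 2 with 0 and 1 read in EBC-1. Of all genes past the floor, 25.7% were higher in every line by any amount and 6.79% at least 2-fold. TP63 and CLDN16 passed the floor only through resistant lines, so at least 1 such line had to be higher. P3H2, a collagen prolyl hydroxylase gene, was at 8.87 in EBC-1 against 12.06, 10.53 and 12.48, and IL1RAP, a co-receptor gene for interleukin 1, at 7.69 against 9.60, 8.81 and 9.77. TP63, which encodes the squamous transcription factor p63, had no reads listed for EBC-1 against levels of 6.65, 11.32 and 8.43. LPP, at 9.33 against 10.01, 9.84 and 10.34, differed by 1.02 at most. DNA copy number was not measured. These neighbours were looked up after the values of CLDN1 were seen.

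**Figure D1:**
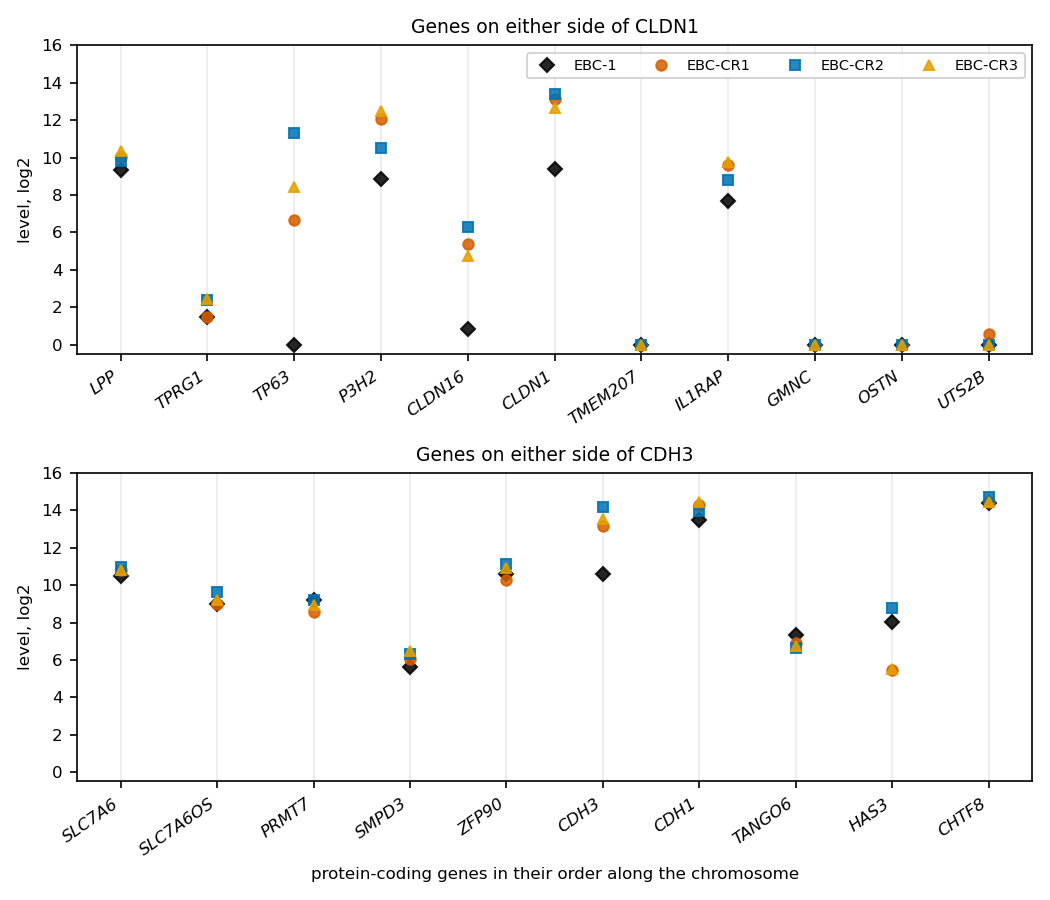
Levels (deposited log2 scale) of the protein-coding genes on either side of CLDN1 and CDH3, in RefSeq order and without distances, with 1 point per library and genes with no symbol match left out. EBC-1 lies lowest at CLDN1, CLDN16, P3H2, TP63 and IL1RAP, and the points of CDH3 are further apart than those of CDH1 beside it.

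The most abundant claudin genes in EBC-1 were CLDN7 and CLDN4, barrier claudins of simple epithelia. CLDN7 was at 13.25 in EBC-1 against 13.67, 14.38 and 13.84. CLDN4 was at 13.13 in EBC-1 against 12.70, 14.17 and 12.88, so that EBC-CR2 alone was above the parental level. CLDN3, which lies beside CLDN4, was low, at 4.67 against 5.66, 6.38 and 4.69. CLDN12 was highest in EBC-CR2 as well, at 10.67 compared with 9.57 in EBC-1. The CLDN12 gene model overlaps CDK14 on the same strand, which was at 6.29 against 10.24, 9.61 and 10.69. It also overlaps GTPBP10 on that strand, at 10.11 against 9.31, 10.24 and 9.33. The division of reads between CLDN12 and these genes is therefore uncertain. CLDN15, a gene of a cation-pore claudin, stayed between 8.45 and 9.19. CLDN23 was at 4.86 in EBC-1 against 4.36, 3.46 and 2.39, and its log2 ratio in EBC-CR3 had a counting interval from -4.40 to -1.32. CLDN2, a gene of another cation-pore claudin, was at 3.81 in EBC-1 against 2.00, 0 and 4.09, and 3 reads would have given 2.13 in EBC-CR2, which was listed at 0.

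As a share of all claudin units, CLDN1 made up 3.25% in EBC-1 against 29.5%, 20.2% and 21.8%. The share of CLDN4 was lower in each resistant line, at 43.6% against 21.8%, 35.1% and 24.9%, and CLDN7 held 47.4% against 42.8%, 40.4% and 48.7%. The summed claudin level was 14.33 on the log2 scale in EBC-1 against 14.89, 15.68 and 14.88. These libraries read each transcript near its 3′ end, so no division by transcript length was made in setting claudins against each other.

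**Figure D2:**
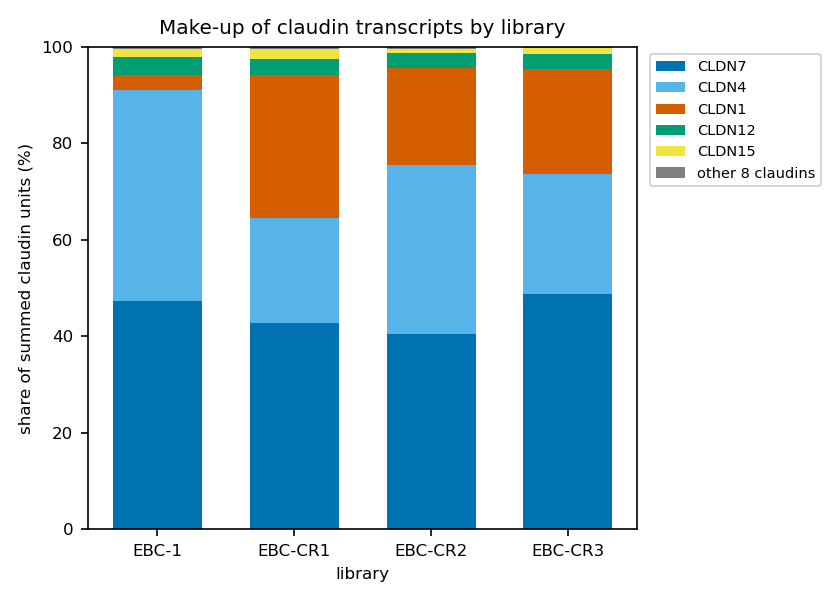
Share of the summed claudin units (percent, vertical axis) held by each claudin gene in each library (horizontal axis), with 1 library per bar and no error. The CLDN1 part is 3.25% in EBC-1 and between 20.2% and 29.5% in the resistant lines.

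Among the other tight junction genes, OCLN, TJP1 and F11R lay close to EBC-1 in every line. OCLN, the occludin gene, was at 8.30 in EBC-1 against 8.03, 7.97 and 8.02. TJP1, which encodes ZO-1, was at 12.41 against 12.76, 12.07 and 12.36, with resistant lines on both sides of EBC-1. F11R, the gene of the adhesion molecule JAM-A, stayed between 10.52 and 10.95. Of these 7 genes, MARVELD2, TJP3 and CGN set EBC-CR2 apart from both other resistant lines by at least 2-fold.

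MARVELD2 encodes tricellulin, which closes the corners where cells meet. It was at 6.71 in EBC-1 against 4.60, 7.01 and 5.25. EBC-CR1 and EBC-CR3 were thus 4.33-fold and 2.76-fold below EBC-1, while EBC-CR2 was at the parental level, with a counting interval of its log2 ratio from -0.08 to 0.69. TJP3, which encodes ZO-3, was at 6.08 in EBC-1 against 6.54, 8.63 and 6.93, 5.86-fold above EBC-1 in EBC-CR2. CGN, the gene of the scaffold cingulin, was at 8.16 in EBC-1 against 8.89, 7.52 and 8.94, so here EBC-CR2 was below both other resistant lines. MARVELD3, of the same tetraspan family as occludin, was at 8.79 against 9.17, 9.82 and 9.43. By limma with Benjamini-Hochberg adjustment, the phenotype comparison gave MARVELD2 an adjusted p of 0.750 and TJP3 one of 0.672.

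MARVELD2 and OCLN lie next to each other on chromosome 5 and are read in the same direction, yet only MARVELD2 was at least 2-fold below EBC-1 in any line. Their upstream windows are printed to set the pair side by side (250 bases before the start, RefSeq, GRCh38.p14, for OCLN the first of 2 starts). Capitals mark an E-box, CAGGTG or its complement CACCTG, which begins 33 bases before the OCLN start.
MARVELD2, chr5:69414866-69415115, plus strand: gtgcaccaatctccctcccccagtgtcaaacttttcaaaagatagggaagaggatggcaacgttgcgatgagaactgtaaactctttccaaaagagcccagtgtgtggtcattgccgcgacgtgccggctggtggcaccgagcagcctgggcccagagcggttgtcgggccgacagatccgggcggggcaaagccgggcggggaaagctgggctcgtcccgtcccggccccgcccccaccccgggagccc
OCLN, chr5:69492297-69492546, plus strand: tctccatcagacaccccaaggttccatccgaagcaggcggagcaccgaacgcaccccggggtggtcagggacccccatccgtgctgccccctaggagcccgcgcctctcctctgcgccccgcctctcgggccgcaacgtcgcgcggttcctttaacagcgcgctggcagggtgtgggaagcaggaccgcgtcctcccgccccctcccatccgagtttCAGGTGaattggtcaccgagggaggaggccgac

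Motifs were searched on both strands in the 250 bases before each start. RefSeq windows were found for 19 of the 30 kept genes, 32 windows in all. An E-box, which SNAI and ZEB factors bind, was in 9 of the 32 windows (28.1%) and in 17.5% of all 35116 windows, and it belonged to CLDN7, DSC2, DSG2, DSP, JUP, OCLN, TJP1 and TJP3. The AP-1 pattern TGANTCA, with any base at N, was in 4 of the 32 windows (12.5%), those of CLDN2, CLDN4, CLDN15 and CLDN16, and in 6.57% of all windows. The grainyhead sequence AACCNGTT or its complement AACNGGTT was in 1 of the 32, that of CGN, and in 1.49% of all. Genes with an E-box included CLDN7 and DSG2, above EBC-1 in every line, and DSC2 and DSP, below it in every line.

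Adherens junction genes were abundant, and P-cadherin stood out. CDH3, the P-cadherin gene of basal epithelial cells, was at 10.62 in EBC-1 against 13.18, 14.20 and 13.53. Each resistant line was above EBC-1, by 5.88-fold, 11.89-fold and 7.47-fold. The phenotype comparison gave a log2 fold of 3.01 ± 0.48 (SE, limma, Benjamini-Hochberg adjusted p = 0.180), and that p ranged from 0.0890 to 0.909 over the alternatives. CDH1, the E-cadherin gene and the next gene along chromosome 16, was at 13.47 in EBC-1 against 14.28, 13.98 and 14.47, above EBC-1 each time and just short of 2-fold in EBC-CR3. Within a library, CDH1 exceeded CDH3 by 2.85 on the log2 scale in EBC-1 and by 1.10 in EBC-CR1 and 0.94 in EBC-CR3, and it was below CDH3 in EBC-CR2, with a difference of -0.21. The median log2 difference of the 9 other genes around CDH3 that passed the floor was 0.00, 0.51 and 0.21.

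The catenin genes act at the inner face of cadherins, and their levels lay closer to EBC-1. CTNNA1, for alpha-catenin, the link to actin, was at 13.28 in EBC-1 against 12.66, 12.48 and 13.00. CTNND1, for p120 catenin, which keeps cadherins at the membrane, was at 16.47 in EBC-1 against 16.33, 17.41 and 16.85. It ranked between 5 and 22 among all symbols of a library. A read-through transcript, TMX2-CTNND1, shares its 3′ part and was listed with 4.29% to 4.87% of the CTNND1 units, so that the division of reads between the symbols is uncertain.

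Of the desmosomal cadherins, DSG2 and DSC2 were kept and stood on opposite sides of EBC-1. DSG2, the desmoglein gene of simple epithelia, was at 11.47 in EBC-1 against 12.07, 12.86 and 12.41, and DSC2, its desmocollin partner, at 11.20 against 9.54, 10.55 and 10.55. All resistant lines were above EBC-1 for DSG2 and below it for DSC2. As a share of the 4 cadherin genes' units, DSG2 held 54.6% in EBC-1 against 85.2%, 83.1% and 78.3%. DSC3 and DSG3, of stratified epithelium, were at 2.46 or less everywhere. An antisense gene, DSG2-AS1, overlaps DSG2 and was at 7.91 in EBC-1 against 8.99, 8.56 and 8.42. Without a stated strand setting, reads of such opposite genes cannot be told apart, which also concerns CLDN2 with MORC4, CLDN7 with ELP5 and EVPL with CDK3. By limma with Benjamini-Hochberg adjustment, neither DSG2 (adjusted p = 0.513) nor DSC2 (adjusted p = 0.577) passed.

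Of the 6 kept plaque and plakin genes, EVPL, PPL and PKP3 were at least 2-fold below EBC-1 in both EBC-CR1 and EBC-CR3. Of all genes past the floor, 14.5% were that far below in EBC-CR1 and 16.6% in EBC-CR3, and the share in both was not computed. EVPL, which encodes envoplakin, a plakin of the cornified envelope and of desmosomes, was at 7.18 in EBC-1 against 5.08, 6.03 and 5.18. It was the kept gene at least 2-fold below EBC-1 in every line, by 4.3-fold, 2.22-fold and 4.0-fold, with a log2 fold of -1.75 ± 0.65 (SE, limma, Benjamini-Hochberg adjusted p = 0.464). PPL, for its partner periplakin, was at 8.78 in EBC-1 against 6.91, 8.72 and 7.53, so EBC-CR2 stayed at the parental level. PKP3, a plakophilin gene, had the same order, at 13.35 against 11.87, 13.00 and 12.14.

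PKP2, another plakophilin gene, was instead above EBC-1, at 9.54 against 10.81, 9.91 and 10.50. JUP, for plakoglobin, which serves both desmosomes and adherens junctions, was at 12.61 against 12.63, 13.33 and 13.22. DSP, for desmoplakin, the link to keratin filaments, was close to level at 11.90 against 11.30, 11.74 and 11.63.

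Of the connexins, GJB5 split the resistant lines. GJB5, a beta connexin gene of squamous epithelium and trophoblast, was at 7.22 in EBC-1 against 0, 7.74 and 0. That is 173 estimated reads in EBC-1 and 189 in EBC-CR2, whereas in EBC-CR1 and EBC-CR3, listed at 0, 3 reads would have given 2.15 and 1.86. The listing at 0 does not show absence. GJB2, the connexin 26 gene, was low, at 4.44 against 5.62, 5.81 and 4.25.

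**Figure D3:**
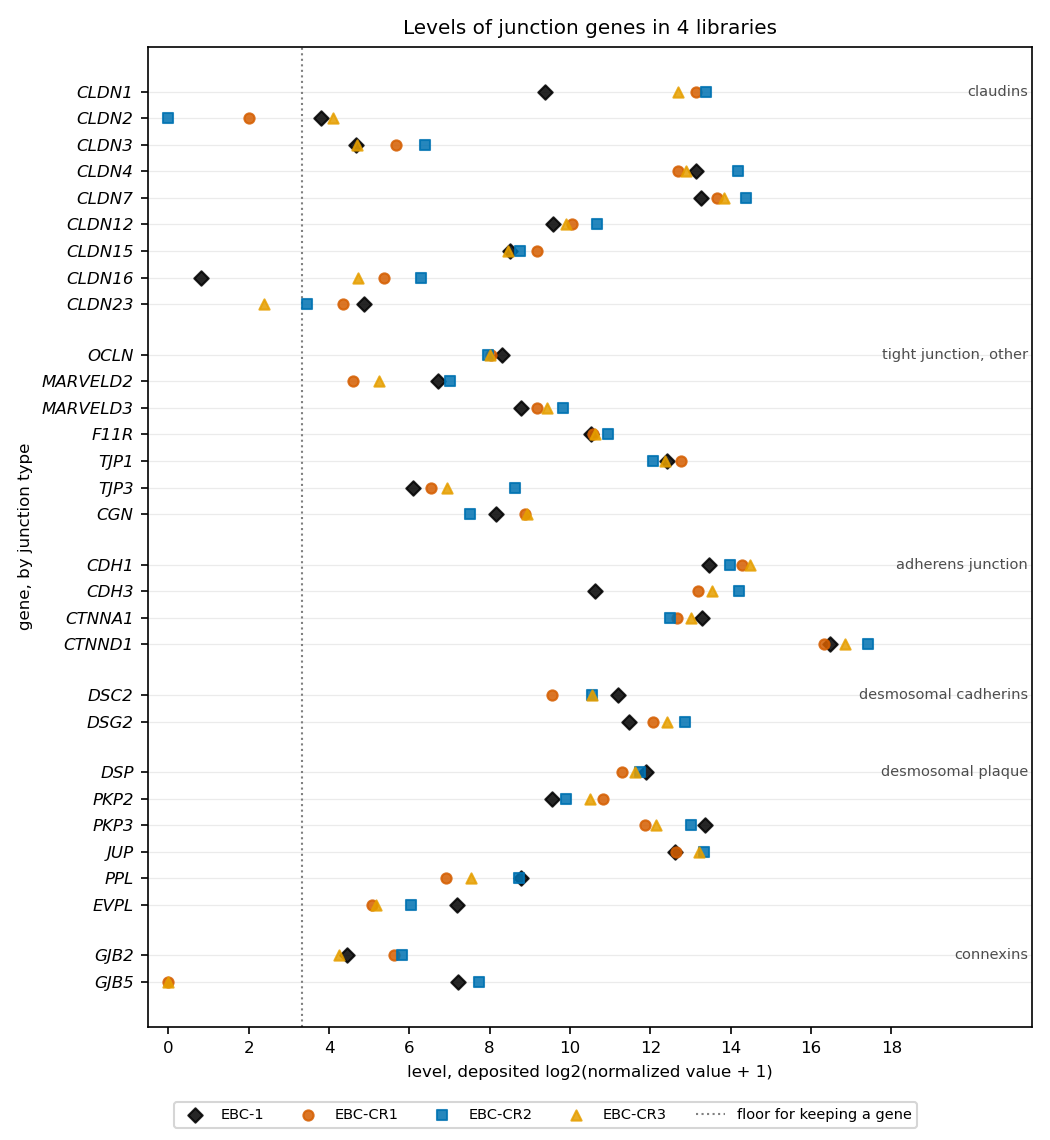
Level of each of the 30 kept junction genes (rows, by junction type) in each library on the deposited log2 scale (horizontal axis), 1 point per library, with the floor dotted. EBC-1 lies far to the left of the resistant lines for CLDN1, CLDN16 and CDH3, and EBC-CR1 and EBC-CR3 lie together on the left for MARVELD2, PPL, PKP3 and GJB5.

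Counted over all 30 kept genes at 2-fold, higher genes outnumbered lower ones in EBC-CR2 only. In EBC-CR1, 5 genes were at least 2-fold higher than EBC-1 and 7 lower, where 13.8% and 14.5% of all genes past the floor were. In EBC-CR2, 11 were higher and 3 lower, against 16.8% and 18.6% of all genes. In EBC-CR3, 3 were higher and 6 lower, against 16.2% and 16.6%. The counts of EBC-CR1 and EBC-CR3 were thus near the shares of all genes. The median log2 difference was 0.21, 0.47 and 0.06, and over all genes past the floor it was -0.06, -0.06 and -0.08, so the medians did not differ in direction between lines. The 11 genes of EBC-CR2 comprised 6 claudins (CLDN1, CLDN3, CLDN4, CLDN7, CLDN12 and CLDN16), TJP3, MARVELD3, CDH3, DSG2 and GJB2, and several were close to the threshold, such as MARVELD3 at 1.03. There is no replicate of any line, so these counts carry no test.

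**Figure D4:**
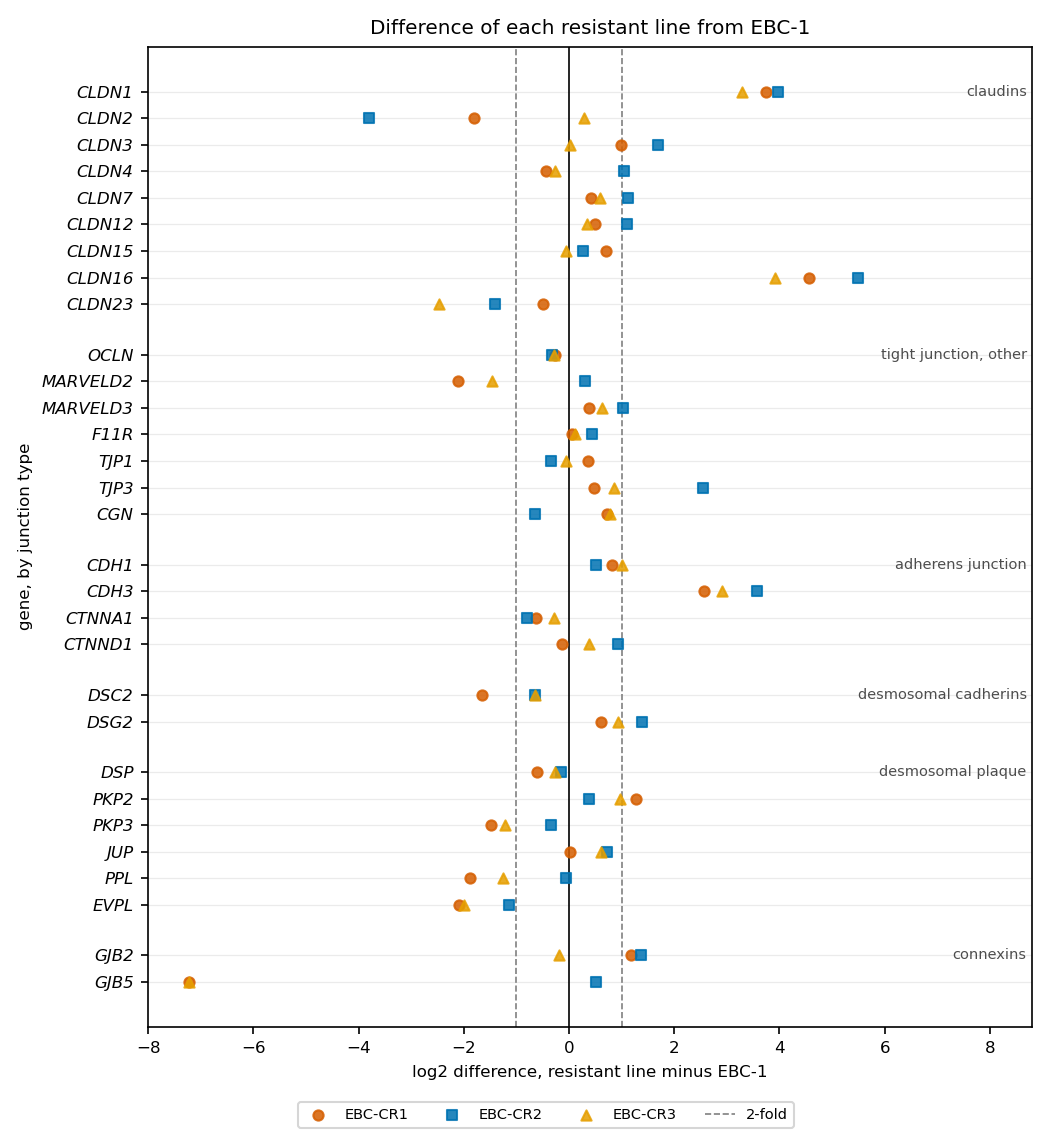
Log2 difference of each resistant line from EBC-1 (horizontal axis) for the 30 kept junction genes (rows), 1 point per line, with dashed lines at 2-fold. CLDN1, CLDN16 and CDH3 lie beyond 2-fold to the right in every line and EVPL to the left, and the points at -7.22 for GJB5 stand for a listing at 0 and are no bound on the fold.

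In all 3 comparisons, which share the EBC-1 library, CLDN1, CLDN16 and CDH3 were at least 2-fold higher in each and EVPL lower in each. Such shared differences were 6.79% (higher) and 5.5% (lower) of all genes, so 3 and 1 of 30 are near the background. Without EBC-CR2 the count of lower genes was 5, since MARVELD2, PKP3, PPL and GJB5 then joined EVPL. The share of all genes lower in both EBC-CR1 and EBC-CR3 was not computed, so this count has no background. All 3 lines were on the higher side of EBC-1, by any amount, for 13 kept genes and on the lower side for 8, where 25.7% and 31.7% of all genes were. In limma with the lines as 1 phenotype, 0 of 30 passed the Benjamini-Hochberg adjusted threshold, against 0.175% of all genes, and 4 had an unadjusted p under 0.05 (CLDN1, CLDN16, CDH3 and EVPL), against 10.5%. The test has 2 residual degrees of freedom per gene and takes the lone EBC-1 library to vary like the resistant lines. In limma the variance of each gene is also drawn toward a trend over all genes past the floor. A gene's p-value therefore rests only in part on its own spread among the resistant lines. For OCLN, for example, these lines had a standard deviation of 0.03, while the limma SE was 0.38.

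Among the resistant lines, more of these genes separated EBC-CR2 from the others than separated EBC-CR1 from EBC-CR3, and so it was over all genes. EBC-CR2 was at least 2-fold above EBC-CR1 for 9 kept genes and below for 2, against 15.9% and 16.8% of all genes. EBC-CR3 was below EBC-CR2 for 9 and above it for 2, against 13.6% and 14.6%. EBC-CR3 and EBC-CR1 differed 2-fold for 4 genes, 2 each way, against 8.25% and 7.96%. EBC-CR2 exceeded both other lines at least 2-fold for CLDN4, MARVELD2, TJP3, PPL and GJB5, against 9.46% of all genes, and was below both for CLDN2 and CGN, against 10.1%. For CLDN4 the log2 difference of EBC-CR2 from EBC-CR1 was 1.48, with a counting interval from 1.43 to 1.52.

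Other genes of the same contacts did not follow one direction. Of 30 further tight junction genes, 22 passed the floor, and 6, 1 and 5 of these were at least 2-fold higher and 4, 7 and 3 lower, by line. For these and the next lists, the shares of all genes past the floor were 13.8%, 16.8% and 16.2% (higher) and 14.5%, 18.6% and 16.6% (lower). CGNL1, for paracingulin, was at 9.86 in EBC-1 against 5.70, 6.29 and 6.04 (limma, adjusted p = 0.120), and PARD6B, of the polarity complex, at 9.90 against 12.83, 11.97 and 12.59 (limma, adjusted p = 0.189). Of 21 further adherens junction genes, 14 passed the floor, with 6, 3 and 7 higher and 1, 2 and 1 lower. Their median log2 difference was 0.80, 0.06 and 0.99, against -0.06, -0.06 and -0.08 over all genes past the floor. CTNND2, at 0 in EBC-1 against 3.61, 0 and 3.61, passed the floor only through resistant lines. AJUBA, for a LIM protein of adherens junctions, was at 8.22 against 11.09, 10.66 and 11.18 (limma, adjusted p = 0.133), and CDH2, the N-cadherin gene, at 11.87 against 13.07, 11.91 and 13.60.

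Of 19 further connexin and pannexin genes, 8 passed the floor, with 3 higher in each line and 2, 2 and 3 lower. The 3 higher genes, GJA3, GJC1 and GJC3, were at 0, 0 and 1.46 in EBC-1. They passed the floor only through resistant lines, so for each of them at least 1 such line had to be higher. Of 5 further desmosome genes, 3 passed, and PERP, whose product sits in desmosomes, was at 11.22 in EBC-1 against 10.51, 12.60 and 10.78. No gene of these 4 lists passed limma at an adjusted p of 0.05, against 0.175% of all genes. An unadjusted p under 0.05 was found for 8, GJA3 and GJC1 among them, against 10.5%.

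Among 16 transcription factor genes known to act on junction genes, 14 passed the floor. By line, 8, 6 and 8 were at least 2-fold higher, where 13.8%, 16.8% and 16.2% of all genes were, and 2, 3 and 0 were lower, where 14.5%, 18.6% and 16.6% were. ELF3, an epithelial ETS factor, was at 9.22 in EBC-1 against 10.98, 12.69 and 11.25, and GRHL2, a grainyhead factor that maintains epithelial junction genes, at 9.68 against 8.65, 9.89 and 8.79. SNAI1, a repressor of E-cadherin, was at 5.29 against 8.09, 3.95 and 7.35, so it was above EBC-1 in EBC-CR1 and EBC-CR3 and below it in EBC-CR2. SNAI2 had the same order of lines, at 6.86 against 9.22, 6.58 and 7.77, but ZEB1 did not, at 5.43 against 2.95, 2.91 and 5.46. GRHL1, unlike GRHL2, was above EBC-1 in every line, at 6.43 against 7.36, 9.25 and 7.67. None of the 14 passed limma at an adjusted p of 0.05, and 4 had an unadjusted p under 0.05, against 10.5% of all genes. Whether any of these bears on the junction genes was not tested.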

How the data were processed

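The labels' protocols name Lexogen QuantSeq, a method that sequences the 3′ ends of transcripts, for each of the 4 RNA samples. The submitters' processing notes list Bowtie2, edgeR and hg19 but no role for any of them, and the gene models and strand setting of the counting are not given here. The deposited values hold 1 log2 level per symbol and library, read here as log2(x + 1), where x is a normalized value, called a unit here; the form is inferred from the values. Values below 500 units lay on multiples of 0.25 units in 100% of cases (tolerance 0.0025), and sorted log2 values differed by at most 0.81 between libraries, with 25.0 M units in each. Quantile normalization of whole counts gives such values, which is inferred, not stated per the labels, and it hides global differences.

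The 20 lowest distinct values of a library were matched to 1 to 20 reads, which gave 0.858 units per read in EBC-1 against 1.145, 1.126 and 0.878 in its 3 descendants by number. Intervals (95%, exact Clopper-Pearson on estimated reads) cover counting error only, as reads are not independent molecules. Differences are between log2 values, which understates low genes, and are called at 2-fold. The 3 resistant lines were compared with EBC-1 in limma 3.58.1 (R 4.3.3, trended variance, Benjamini-Hochberg at 0.05) over the 14892 symbols at 9 units or more in any library. Alternatives were an offset of 5, no floor, a floor of 50 units, estimated reads scaled to equal depth, no variance trend and leaving out each line. Centring was chosen after seeing the data. Scripts were tested on simulated data. The other steps ran in Python 3.11.15 (matplotlib 3.10.9, scipy 1.17.1, pandas 2.3.3, numpy 2.4.6).

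The members and gene lists were chosen with earlier results of these data known. Every library is named in full for kept genes that differed at least 2-fold the same way in all lines, spanned 4-fold or more over the libraries or split in direction, and the rule gave other kept genes by type with up to 2 examples, to which further kept genes were added after their values were seen. RefSeq tables (GRCh38.p14) gave gene order and upstream sequence by symbol, and GENCODE 29 gave overlapping gene models. Protein sequences were not used here. Some genes that the rules take are not reported here.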

Additional observations from a re-analysis of the deposited data

How the results depend on the processing

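For the counts of kept genes and the limma calls, 78 of 103 recomputed values stayed within 1.5 times. With an offset of 5, EBC-CR2 was below EBC-CR1 for 1 gene. With no floor, EBC-CR3 was above EBC-1 for 6, above and below EBC-CR1 for 4 each and above EBC-CR2 for 4, 2 genes were lower in all lines, and limma called 0 of all genes. With a floor of 50 units, EBC-CR2 was below EBC-1 for 1 gene and below EBC-CR1 for 1. EBC-CR3 was then above and below EBC-CR1 for 1 each and above EBC-CR2 for 1. At that floor limma called 1 kept gene (CLDN1) and 54 of all genes. With centred libraries, a choice added after seeing the data, EBC-CR3 was above EBC-1 for 5, and limma called 1 kept gene (CLDN1) and 45 of all genes. Centring moved the median by 0.06 at most. Estimated reads scaled to equal depth changed no count by over 1.5 times, but as every library has the same total it cannot undo the deposited normalization. Without a variance trend limma called 0 of all genes, against 26. Leaving out each line in turn gave 2 to 5 genes lower and 3 to 4 higher in all remaining lines, 3 to 9 kept genes at an unadjusted p under 0.05, and 0 called, of kept or of all genes. For the counts of lower and higher genes and of unadjusted p in these leave-one-out runs, shares of all genes were not computed. No cause of any of these changes was tested. No paired analysis was possible because EBC-1 has a single library.

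Depth limits CLDN2, CLDN3, CLDN16, CLDN23 and GJB2, which rest on fewer than 100 estimated reads in every library. With 1 library per line, no difference of a single line has a replicate check.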

Other observations

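Some genes beside junction genes showed the split seen for GJB5, MARVELD2 and PPL, and those given here were picked out after their values were seen. HAS3, a hyaluronan synthase gene near CDH1, was at a log2 level of 8.01 in EBC-1 against 5.46, 8.77 and 5.51 in the 3 lines by number. SMIM22 and ROGDI, near PPL, were at 9.04 against 7.71, 9.56 and 7.89 and at 8.91 against 7.64, 9.39 and 8.13. SIGIRR, next to PKP3 and a brake on interleukin 1 receptors, was at 9.87 against 8.65, 9.85 and 8.02. That EBC-CR1 and EBC-CR3 were below EBC-1 and EBC-CR2 for all 4 genes follows from how they were picked. Other genes beside the same junction genes lacked this order, such as CHTF8 near CDH1, at 14.41 against 14.46, 14.69 and 14.45. Genes beside junction genes without the split also had the order, such as IFT22 near CLDN15, at 11.85 against 10.29, 11.85 and 10.54. The share of all genes with this order was not computed.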
